A study of Rattus norvegicus with 27 samples.

Results

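Transcripts of the aminoacyl-tRNA synthetases were followed in rat hippocampus after global brain ischemia. The members were the 35 listed synthetase genes, 19 cytosolic (names ending in 1, a or b) and 16 mitochondrial (names ending in 2). Each was taken as the brightest probe set whose only gene symbol in the platform annotation was that gene. A probe set was found for 34 of the 35, with none named for Iars2, and no member had several. This is 34 of 18166 genes measured, and 32 of the 34 passed the filter on low values. Pars2 and Yars2, mitochondrial prolyl and tyrosyl enzymes, lay below it, with intensities from 9.55 to 41.4 over the 27 arrays. Affymetrix Rat Gene 2.0 arrays were run on male Long Evans rats. The 8R groups had both carotid arteries occluded under hypotension for 10 min, at normal body temperature, followed by 8 h of reperfusion. The NIC groups were sham operated, non-ischemic controls. From each animal CA1 and CA3 were dissected, and the tissue of 5 rats was pooled for 1 array. A post-mitochondrial supernatant gave total RNA, and the pellet of that supernatant over a sucrose pad gave polysome RNA. The groups were 8R CA1 polysome RNA (3 arrays), 8R CA1 total RNA, 8R CA3 polysome RNA and 8R CA3 total RNA (4 arrays each), and the same 4 kinds of RNA from NIC rats (3 arrays each). Regions were dissected whole, so neurons and glia are measured together, and fewer cells of a type cannot be told apart from less RNA per cell.

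Aminoacyl-tRNA synthetases join each amino acid to its own tRNAs, and so supply the ribosome with charged tRNA. Mammalian cells use one set of enzymes in the cytosol and another in mitochondria, both encoded in the nucleus. Several cytosolic enzymes are held together with scaffold proteins in the multisynthetase complex. Many cytosolic synthetase genes are known targets of ATF4, the transcription factor made when the initiation factor eIF2 is phosphorylated, as happens in brain on reperfusion after ischemia. CA1 pyramidal neurons are known to die some days after such an insult, and CA3 neurons are known to be more resistant.

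ATF4 is known to bind, with partners of the C/EBP family, a response element with the core TGATGNAA. RefSeq promoter windows of build GRCr8, 250 bases before to 50 after the annotated start, were found for 17 of the 19 cytosolic members, with none for Gars1 and Rars1. The core, read on both strands, was present in 7 of these 17 windows (41.2%) and in 0 of the 16 mitochondrial windows. Over all 33469 RefSeq windows it was present in 1332 (3.98%). Members had 1 window each, while the full set was not reduced to 1 window per gene. Aars1, the alanyl enzyme, was called in all 4 comparisons of 8R with NIC described below. Its window is therefore printed whole, and matches to the core, all on the reverse strand here, are in capitals. It spans chr19:55908232-55908531 on the plus strand.
Aars1: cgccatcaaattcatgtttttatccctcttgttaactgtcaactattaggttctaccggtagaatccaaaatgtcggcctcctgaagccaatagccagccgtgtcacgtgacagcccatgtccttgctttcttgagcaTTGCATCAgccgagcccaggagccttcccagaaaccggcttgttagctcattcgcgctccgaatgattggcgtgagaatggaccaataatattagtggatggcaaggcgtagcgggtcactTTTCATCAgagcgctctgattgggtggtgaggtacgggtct
The stretches around the match of 5 other cytosolic members follow, chosen after their values were seen, to show how near to the start the match lies and how alike it is. All are written 5′ to 3′ on the strand of the gene. Cars1 (chr1:208225325-208225372, minus strand), Iars1 (chr17:15193649-15193696, minus), Mars1 (chr7:65023743-65023790, minus) and Tars1 (chr2:62114802-62114849, minus) hold it in reverse, and Yars1 (chr5:146820181-146820212, plus) in the forward direction.
Cars1: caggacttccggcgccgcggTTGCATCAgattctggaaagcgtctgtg
Iars1: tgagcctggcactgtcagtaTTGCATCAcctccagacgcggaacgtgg
Mars1: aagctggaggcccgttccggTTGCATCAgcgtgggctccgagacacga
Tars1: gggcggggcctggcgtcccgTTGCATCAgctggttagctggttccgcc
Yars1: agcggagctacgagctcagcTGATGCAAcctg
Nars1, the asparaginyl enzyme, also holds 1 match, at -14 to -7 from the start. In each of the 7 windows at least 1 match read TGATGCAA, a form present in 266 of all windows (0.795%). This narrower form was not named in the plan, so its share is only a description of the members' matches. Of 27 other listed ATF4 targets and amino acid response genes with a window, 4 held it (14.8%).

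Array medians were 25.6 to 38.1 intensity units, the lowest correlation of log2 values within a group was 0.946, and no arrays were identical. The 8R arrays carry pool numbers, and those of pool 4 deviated together from their group means, with correlations from 0.54 to 0.78 between its arrays, so counts are also given without them. Of the tissue's defining markers, all 6 CA1 pyramidal genes listed were measured, and their summed intensity was 1218 to 1366 in NIC CA1 total RNA and 563 to 652 in NIC CA3 total RNA. The CA3 pyramidal list was less distinct. Its 6 genes summed to 824 to 858 in NIC CA1 and 972 to 1074 in NIC CA3 total RNA. Of 5 tested, 2 were called lower in CA1 and 2 had positive values, where 3.47% of all genes were called. The sum of 4 dentate granule markers was 210 to 298 in NIC CA1 against 165 to 185 in NIC CA3 total RNA. Markers of other cells moved with 8R. The summed intensity of 5 astrocyte markers was 3200 to 3705 in 8R CA1 total RNA against 2433 to 2643 in NIC, and that of 7 microglial markers, 6 of them above the filter, was 399 to 456 against 319 to 359. The sum of 7 neuronal markers was 7115 to 8555 in 8R CA1 total RNA against 8973 to 9424 in NIC. In CA1 polysome RNA it was 8609 to 9817 in 8R against 10610 to 11480 in NIC. In CA3 total RNA it was 8848 to 9971 in 8R against 9171 to 9916 in NIC. Of the 7 neuronal markers 3 were called lower and 2 had positive values in CA1 total RNA, where 6.15% of all genes fell. Glial sums in CA3 total RNA did not overlap. They were 2376 to 2992 in 8R against 2132 to 2206 in NIC for astrocyte markers, 387 to 399.5 against 286 to 316 for microglial markers, and 1391 to 1558 against 948 to 1165 for 5 oligodendrocyte markers. In CA1 total RNA the oligodendrocyte sum was 1739 to 2044 in 8R against 1686 to 2012 in NIC and overlapped. Their part in the results below was not tested. Of the 5 astrocyte markers 3 rose in CA1 total RNA and 1 in each of the other 3 comparisons, and 2 had negative values in both polysome comparisons, the lowest at -0.16 in CA1 and -0.25 in CA3. The one called throughout, Gfap, also had the highest value of the 5, and rose in all 4 comparisons of 8R with NIC, by 0.96, 0.87, 1.04 and 0.71 log2 in CA1 total, CA1 polysome, CA3 total and CA3 polysome RNA.

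In CA1 total RNA most cytosolic synthetase transcripts rose after ischemia and the mitochondrial ones as a group did not. Of 19 cytosolic members 15 rose and 1 fell, where 20.1% of all genes tested rose and 6.15% fell. Their median log2 change was 0.67, against 0.04 over all genes. Of 13 tested mitochondrial members 1 rose and 1 fell, with a median of -0.05. A gene was called at a limma adjusted p under 0.05, and changes are on the scale of log2(intensity + 16), which understates the change of dim transcripts. The largest rises were those of Eprs1 (1.79 log2), Cars1 (1.65), Tars1 (1.41) and Rars1 (1.24). Without the pool 4 arrays 16 cytosolic members rose and 1 fell.

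**Figure D1:**
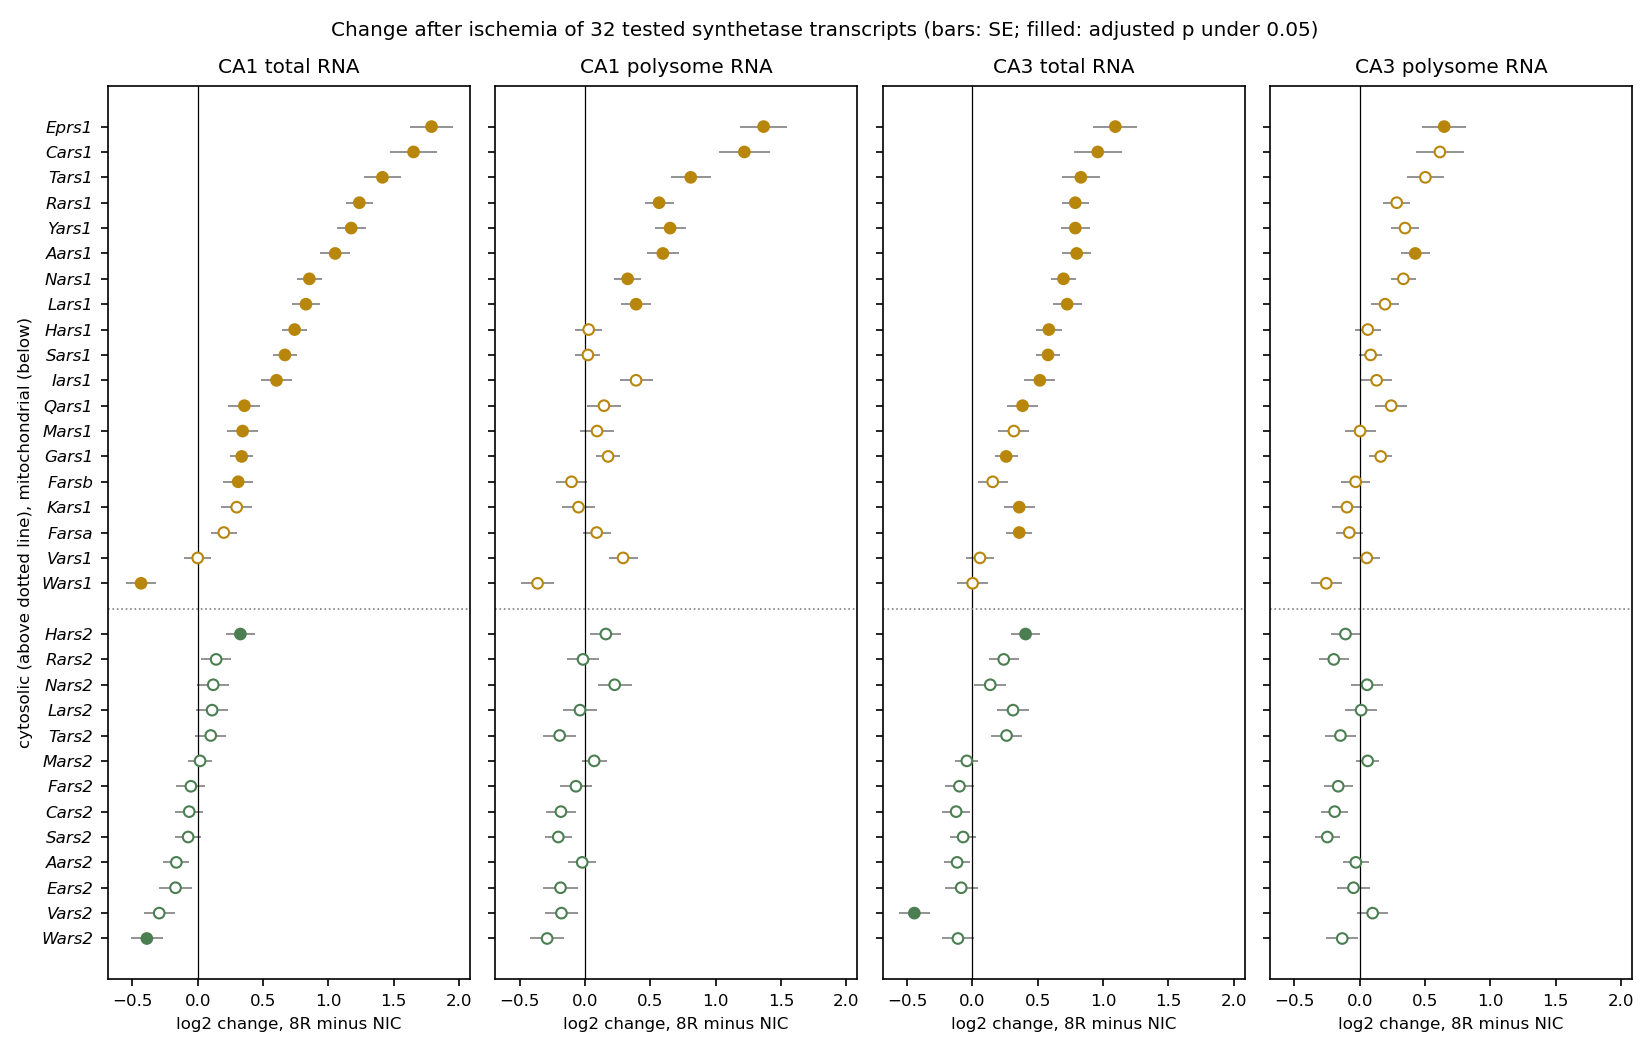
Log2 change, 8R minus NIC, of the 32 tested synthetase transcripts in CA1 total, CA1 polysome, CA3 total and CA3 polysome RNA (points, with SE bars; filled where the adjusted p was under 0.05; cytosolic members above the dotted line and mitochondrial ones below, ordered by CA1 total RNA). The cytosolic points run from -0.43 to 1.79 in CA1 total RNA and from -0.26 to 0.65 in CA3 polysome RNA, and 13 mitochondrial members stay between -0.44 and 0.41 in all panels.

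Eprs1 encodes the bifunctional enzyme that charges both glutamate and proline tRNAs. Its intensities in CA1 total RNA were 530.1, 365, 326 and 538 in 8R, against 111, 106 and 122 in NIC. Every 8R array lay above every NIC array, and the transcript rose 3.46-fold (log2 change 1.79 ± 0.17 SE, n = 4 and 3, limma adjusted p = 7.31e-09). Cars1, the cysteinyl enzyme, had 314, 212, 165 and 259.5 in 8R, against 60.6, 68.3 and 59.5 in NIC. The groups did not overlap, although the 8R arrays differed among themselves by more than the whole range of NIC, and the rise was 3.14-fold (1.65 ± 0.18, adjusted p = 1.02e-07). Tars1, the threonyl enzyme, was at 389, 284, 231 and 368 in 8R, against 105, 104 and 112 in NIC, a rise of 2.67-fold (1.41 ± 0.14, adjusted p = 2.74e-08). In these 3 genes the arrays of pools 1 and 4 were the high ones and pool 3 was the lowest of 8R.

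Rars1 encodes the arginyl enzyme of the multisynthetase complex. It had 244, 219, 198 and 224 in 8R CA1 total RNA, against 89.3, 73.5 and 91.3 in NIC, with the lowest 8R array far above the highest NIC array. The rise was 2.36-fold (1.24 ± 0.10, adjusted p = 9.45e-10), the smallest adjusted p among the members. Yars1, the tyrosyl enzyme, had 515, 431, 386 and 438 in 8R, against 199.8, 172 and 187 in NIC (2.26-fold, adjusted p = 7.54e-09). Aars1, whose promoter window is printed above, had 575, 473, 417 and 506 in 8R, against 231, 229.6 and 223 in NIC (2.07-fold, adjusted p = 6.68e-08). NIC arrays of Aars1 lay close together, and the lowest 8R array was far above them. Nars1 had 522, 461, 429 and 462 in 8R, against 249, 233 and 272 in NIC (1.81-fold, adjusted p = 1.22e-07). Lars1, the leucyl enzyme, which also takes part in leucine sensing by mTORC1, had 185, 161, 157 and 169.9 in 8R, against 96.9, 75.2 and 91.8 in NIC (1.78-fold, adjusted p = 1.8e-06). The 8R and NIC arrays of these genes did not overlap. They are among the 8 picked by the size of their called change, and the share of all genes without overlap was not counted, here or below.

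The remaining cytosolic members had smaller values. Hars1 (histidine) rose by 0.74 log2, Sars1 (serine) by 0.67 and Iars1 (isoleucine) by 0.60. Qars1 (glutamine), Mars1 (methionine), Gars1 (glycine) and Farsb, the beta subunit of the phenylalanyl enzyme, rose by 0.36, 0.34, 0.34 and 0.31. These 4 smaller calls depended on single arrays. Gars1 had an adjusted p of 0.0543 without NIC CA1 total replicate 2. Farsb lost its call without NIC replicate 1 or 2 or 8R replicate 1, 3 or 4 (adjusted p 0.0579 to 0.294), Mars1 without NIC replicate 1, 2 or 3 or 8R replicate 1 (0.0548 to 0.121), and Qars1 without NIC replicate 1 or 2 or 8R replicate 1, 2 or 3 (0.0517 to 0.149). Kars1 (lysine), at 0.30 with an adjusted p of 0.0603, and Farsa, the alpha subunit of the phenylalanyl enzyme, at 0.20 (0.148), were not called. Kars1 was called, with an adjusted p of 0.0137, without 8R replicate 4. Vars1 (valine) stood at 0.00 ± 0.10, with a 95% interval of -0.21 to 0.21.

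Wars1, the tryptophanyl enzyme, known as a target of interferon gamma, was the cytosolic member that fell in CA1 total RNA. Its array values, given here after they were seen, were 313, 232, 351 and 381 in 8R, against 425, 440.5 and 425 in NIC. All 8R arrays lay below all NIC arrays, and the change was -0.43 ± 0.12 (adjusted p = 0.00628). In CA1 polysome RNA it was -0.36 and not called (adjusted p = 0.0698), although it was called without 8R CA1 polysome replicate 2 (adjusted p = 0.0333) and without pool 4 (0.0356). In CA3 it was at 0.00 in total RNA and -0.26 in polysome RNA, neither called.

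**Figure D2:**
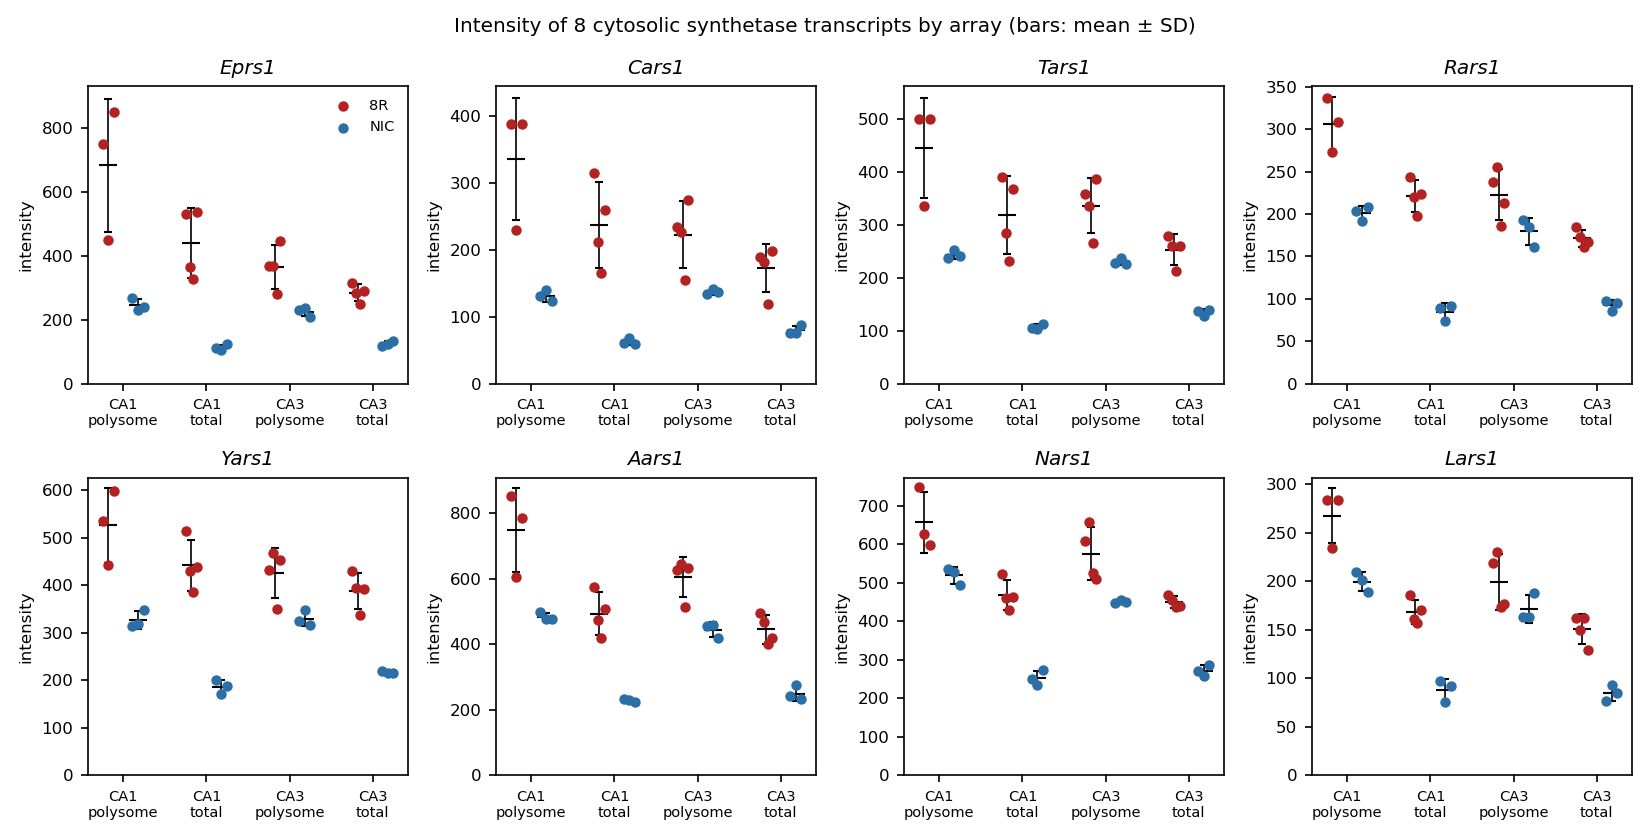
Intensity on each array of the 8 cytosolic synthetase transcripts with the largest called changes, 8R (red) left of NIC (blue) within each region and fraction, with the mean and SD of each group. In total RNA the 8R points lie above all NIC points for every one of the 8, and in CA3 polysome RNA the points of Rars1 and Lars1 overlap. The 8 were picked by these changes, and the share of all genes without overlap was not counted.

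In CA1 polysome RNA 8 of the 19 cytosolic members rose and none fell, where 4.87% of all genes tested rose. Their median log2 change was 0.29, against 0.01 over all genes. The 8 were Eprs1, Cars1, Tars1, Rars1, Yars1, Aars1, Nars1 and Lars1. Eprs1 had 749.8, 449 and 849 in 8R, against 267, 231 and 241 in NIC, a rise of 2.58-fold (1.37 ± 0.18 SE, n = 3 and 3, limma adjusted p = 1.26e-05). Cars1 had 389, 230.1 and 388 in 8R, against 131, 140.3 and 123 in NIC, a rise of 2.33-fold (1.22 ± 0.19, adjusted p = 0.000153). In both, the middle 8R value listed, from pool 3, was the low one and still lay above every NIC array. Tars1 had 500.1, 335 and 499 in 8R, against 236, 252 and 241 in NIC (1.75-fold, adjusted p = 0.00107). Yars1 had 536, 442 and 599 in 8R, against 314, 318 and 348 in NIC (1.57-fold, adjusted p = 0.00072). Aars1 had 853, 604 and 785 in 8R, against 497, 478 and 478 in NIC (1.51-fold, adjusted p = 0.00207). The groups did not overlap for any of these.

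Rars1 in CA1 polysome RNA was at 337, 274 and 308 in 8R, against 203, 192 and 208 in NIC (1.48-fold, adjusted p = 0.00158). Lars1 had 284, 235 and 284 in 8R, against 209, 201 and 189 in NIC (1.31-fold, adjusted p = 0.0348). Nars1 had 748, 626 and 598 in 8R, against 536, 528 and 493 in NIC (1.25-fold, adjusted p = 0.0429). For these 3 the 8R arrays also lay above all NIC arrays, but the last 2 calls were weak. Lars1 lost its call without any of the 3 NIC arrays or without 8R replicate 1 or 3 (adjusted p 0.064 to 0.156) and without pool 4 (0.0588), and Nars1 without any NIC array or without 8R replicate 1 (0.0793 to 0.238). Iars1, at 0.39 with an adjusted p of 0.0509, was called without 8R replicate 2 (0.0083). Hars1 and Sars1, called in total RNA, were at 0.03 and 0.02, with 95% intervals of -0.19 to 0.24 and -0.17 to 0.22. Of the 13 mitochondrial members 0 were called by limma and 1 had an unadjusted p under 0.05. Without pool 4, 7 cytosolic members rose and 1, Wars1, fell.

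In CA3 total RNA 15 of 19 cytosolic members rose and none fell, where 14.2% of all genes tested rose and 1.34% fell. The median log2 change was 0.58, against 0.08 over all genes. Eprs1 had 313, 284, 249.8 and 291 in 8R, against 117, 124 and 133 in NIC, and rose 2.13-fold (1.09 ± 0.17 SE, n = 4 and 3, limma adjusted p = 5.27e-05). Cars1 had 189, 183, 119 and 198 in 8R, against 75.9, 75.3 and 87.3 in NIC, and rose 1.94-fold (0.96 ± 0.18, adjusted p = 0.000547). The pool 3 array of Cars1 was far below the other 8R arrays and above all NIC arrays. Tars1 had 279, 259.9, 212 and 259 in 8R, against 136, 128 and 139 in NIC (1.78-fold, adjusted p = 0.000207). Aars1 had 496, 468, 399 and 418 in 8R, against 239.8, 276 and 231 in NIC (1.74-fold, adjusted p = 2.1e-05). Rars1 had 184, 172, 161 and 167 in 8R, against 96.8, 85.3 and 95.2 in NIC (1.73-fold, adjusted p = 9.7e-06). All arrays of 8R exceeded all arrays of NIC for each of these genes.

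Yars1 in CA3 total RNA had 429, 393, 336 and 392 in 8R, against 220.0, 215 and 216 in NIC (1.73-fold, adjusted p = 2.02e-05). Lars1 had 162, 149, 162 and 129 in 8R, against 76.4, 93.2 and 84.3 in NIC (1.65-fold, adjusted p = 4.8e-05). Nars1 had 469, 454, 438 and 439 in 8R, against 269, 258 and 286 in NIC (1.62-fold, adjusted p = 1.5e-05). None of the 3 overlapped between groups. Hars1, Sars1 and Iars1 rose by 0.59, 0.58 and 0.52 log2, and Qars1, Kars1, Farsa and Gars1 by 0.38, 0.36, 0.36 and 0.26. The last 4 calls depended on single arrays. Farsa lost its call without NIC CA3 total replicate 2 (adjusted p = 0.119) or 8R replicate 3 (0.0543), and Gars1 without NIC replicate 1 or 3 or 8R replicate 1, 2 or 3 (0.0621 to 0.158). Kars1 and Qars1 lost theirs without any NIC array or without 8R replicate 1, 2 or 3 (0.0801 to 0.111 for Kars1 and 0.0515 to 0.115 for Qars1). Mars1, Farsb, Vars1 and Wars1 were at 0.32, 0.16, 0.06 and 0.00 and were not called. Mars1 was called without 8R replicate 4 (0.0126). Without pool 4, 16 cytosolic members rose.

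In CA3 polysome RNA only Eprs1 and Aars1 were called among the cytosolic members, where 2.38% of all genes tested rose. The median of the 19 was 0.16, against 0.04 over all genes. Eprs1 had 369, 368, 279 and 446 in 8R, against 229.8, 237 and 209 in NIC (1.57-fold, 0.65 ± 0.17 SE, n = 4 and 3, limma adjusted p = 0.0337). Aars1 had 625, 646, 513 and 632 in 8R, against 456, 459 and 418 in NIC (1.34-fold, 0.42 ± 0.11, adjusted p = 0.0385). In both genes the pool 3 array was the lowest of 8R and above all NIC arrays. Cars1 had 234, 227, 155 and 275 in 8R, against 133, 142 and 137 in NIC, and Tars1 had 357, 334, 265 and 387 in 8R, against 228, 237 and 225 in NIC. These also did not overlap, at 0.61 ± 0.18 (adjusted p = 0.0636) and 0.50 ± 0.14 (0.0524), and were not called. Yars1, Nars1, Rars1 and Lars1 were at 0.35, 0.33, 0.28 and 0.19, uncalled. The count of 2 rested on single arrays. It was 0 without NIC CA3 polysome replicate 1, 2 or 3 or 8R replicate 1 or 2, it was 1 (Nars1) without 8R replicate 4, and it was 6 without 8R replicate 3. Without pool 4 it was 3, and with the pool number as a random block it was 5. After quantile normalization it was 1, Nars1 (adjusted p = 0.0256), while Eprs1 (0.0788) and Aars1 (0.0648) lost their calls. After centring each array on its median it was 0. Of 13 mitochondrial members 0 were called by limma and 1 had an unadjusted p under 0.05.

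Pool 3 was low across the 8 transcripts with the largest called changes. It gave the lowest 8R value in all 4 groups for 6 of the 8 transcripts (Eprs1, Cars1, Tars1, Rars1, Yars1 and Aars1), in 3 groups for Lars1 and in 2 for Nars1. The 8R arrays of Eprs1 in CA1 polysome RNA spread more widely than its NIC arrays. It averaged 683 ± 208 in 8R CA1 polysome RNA and 246 ± 18.6 in NIC CA1 polysome RNA (SD, n = 3 each).

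The change was set against that of the same gene in the other region. In total RNA the change of Eprs1 in CA1 exceeded that in CA3 by 0.70 ± 0.24 log2, that of Cars1 by 0.69 ± 0.26 and that of Tars1 by 0.58 ± 0.20, with limma adjusted p of 0.793, 0.843 and 0.793. None of the 32 members was called, where 0.0236% of all genes tested were, and 6 had an unadjusted p under 0.05 (Eprs1, Cars1, Tars1, Rars1, Yars1 and Wars1). The difference was positive for 14 of the 19 cytosolic members. In polysome RNA 0 members were called, where 0.0157% of genes were, and 2 had an unadjusted p under 0.05, Eprs1 at 0.72 ± 0.25 and Cars1 at 0.61 ± 0.27. With the pool number as a fixed block, which pairs CA1 and CA3 arrays of a number, 3 members were called in total RNA (Cars1, Eprs1 and Tars1) and 2 in polysome RNA (Cars1 and Eprs1), all larger in CA1. With the pool as a random block, or without pool 4, 0 were called in either fraction. The share of all genes was not counted for the block fits or for unadjusted p, so these counts have no background beside them.

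The change in polysome RNA was smaller than that in total RNA for most cytosolic members. In CA1 the polysome change minus the total change was negative for 17 of 19, with a median of -0.42 against -0.06 over all genes, and 4 were called lower, where 3.41% of all genes tested were. These were Hars1 (-0.71 ± 0.14 SE, limma adjusted p = 0.00963), Rars1 (-0.67 ± 0.15, 0.016), Sars1 (-0.65 ± 0.13, 0.0102) and Nars1 (-0.53 ± 0.14, 0.0305). Hars1 in CA1 had 526, 509 and 447 in 8R polysome RNA, against 464, 498 and 488 in NIC polysome RNA. In total RNA it had 547, 464, 449.6 and 480.1 in 8R, against 297, 252 and 301 in NIC. The groups of Hars1 overlapped in polysome RNA and stood well apart in total RNA. Sars1 had 688, 673 and 636 in 8R polysome RNA, against 670.2, 653 and 642 in NIC polysome RNA. In total RNA it had 705, 610.4, 571 and 618 in 8R, against 402, 368 and 392 in NIC, the same pattern.

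For Rars1 the arrays listed above show both fractions rising, 1.48-fold in polysome and 2.36-fold in total RNA. The count of 4 in CA1 was 0 without NIC CA1 total replicate 2 and 6 without 8R CA1 total replicate 3, and 6 without pool 4. It was 2, Hars1 and Sars1, after quantile normalization, and 8 with the pool number as a random block and 11 with it as a fixed block. In CA3 the difference was negative for 19 of 19 cytosolic members, with a median of -0.37 against -0.07 over all genes. None was called, where 0.11% of all genes tested were lower. Of the 32 members 14 had an unadjusted p under 0.05, 10 of them cytosolic. Sars1 was at -0.50 (limma adjusted p = 0.0679) and Hars1 at -0.52 (0.0749). With the pool number as a random block 13 members were called in CA3, 12 lower and 1 (Vars2) higher, and 17 with it as a fixed block. How many of all genes were called with these blocks, or had an unadjusted p under 0.05, was not counted. The count was 10 without pool 4, 4 without 8R CA3 polysome replicate 2 and 8 without 8R CA3 total replicate 4. Quantile normalization moved the medians of the cytosolic members to -0.19 in CA1 and -0.18 in CA3. Because every array received an equal mass of labelled RNA, the values are shares of a fraction and not amounts.

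**Figure D3:**
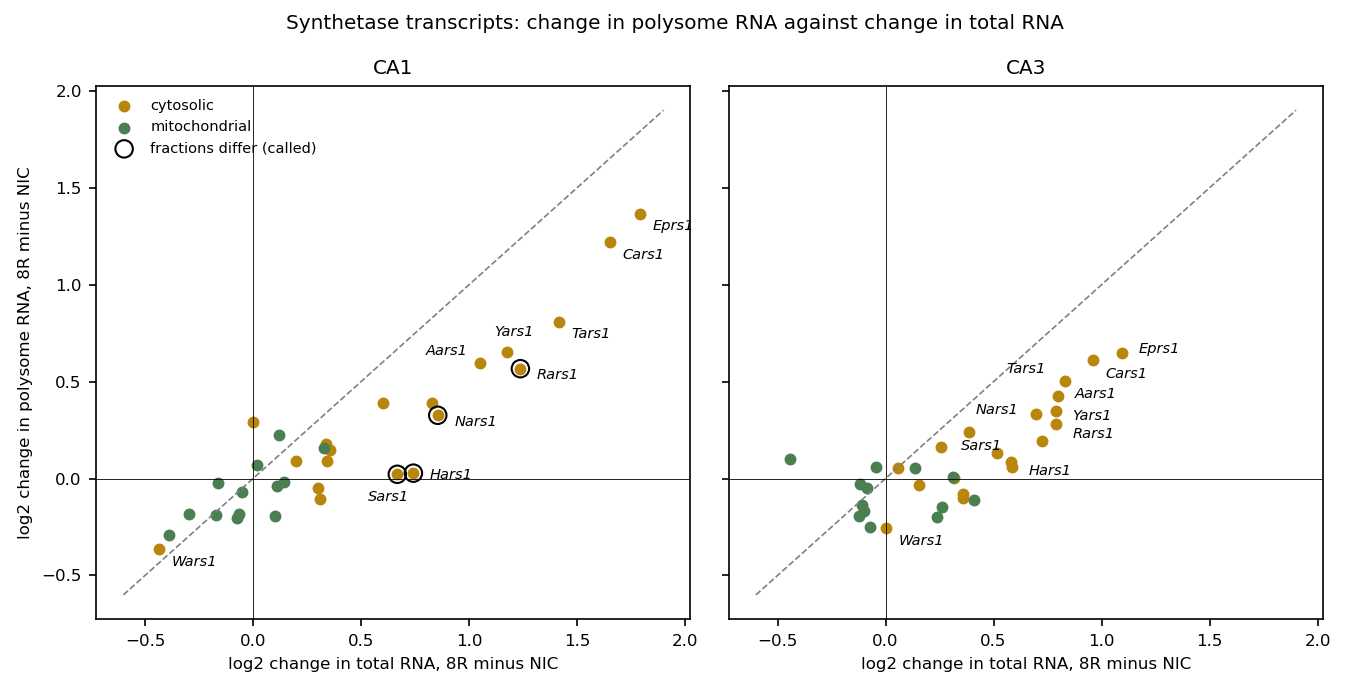
Log2 change, 8R minus NIC, in polysome RNA (vertical) against that in total RNA (horizontal) for each synthetase, in CA1 and CA3, with the line of equal change dashed and circles around members whose fractions differed at an adjusted p under 0.05. Most cytosolic points lie below the line, with Hars1 and Sars1 near 0 on the vertical axis in CA1.

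The 13 mitochondrial members had median changes of -0.05 in CA1 total, -0.07 in CA1 polysome, -0.07 in CA3 total and -0.11 in CA3 polysome RNA, against 0.04, 0.01, 0.08 and 0.04 over all genes. Hars2, the mitochondrial histidyl enzyme, was the mitochondrial member that rose. It had 87.8, 76.7, 87.0 and 79.3 in 8R CA1 total RNA, against 64.7, 66.9 and 56.6 in NIC (0.33 ± 0.11 SE, limma adjusted p = 0.0287). In CA3 total RNA it had 95.0, 90.9, 87.5 and 68.0 in 8R, against 65.0, 57.1 and 58.2 in NIC (0.41 ± 0.11, adjusted p = 0.0124). The groups did not overlap in either region. In polysome RNA Hars2 had 84.4, 121 and 99.8 in 8R CA1, against 83.6, 84.4 and 98.6 in NIC CA1, and 77.5, 92.4, 81.3 and 68.5 in 8R CA3, against 77.2, 91.5 and 93.3 in NIC CA3. There the groups overlapped in both regions. The Hars1 and Hars2 genes are known to lie head to head and to share a promoter region. Vars2, the mitochondrial valyl enzyme, fell in CA3 total RNA, with 35.4, 39.8, 39.5 and 52.3 in 8R, against 53.5, 74.3 and 60.0 in NIC (-0.44 ± 0.12, adjusted p = 0.00973). In CA1 total RNA it had 39.4, 29.9, 43.4 and 43.2 in 8R, against 61.1, 45.0 and 48.2 in NIC, a difference of -0.29 (adjusted p = 0.0624) that was not called. It was called lower without pool 4 (0.0265), without 8R CA1 total replicate 4 alone (0.0488), after quantile normalization (0.0285), after centring (0.0107), with array weights (0.0154) and with the title number as a block (0.0211). Wars2 fell in CA1 total RNA by 0.39 log2 (adjusted p = 0.0186). These calls were not stable to single arrays. Hars2 lost its call in CA1 without NIC replicate 1 or 3 or 8R replicate 1 or 3 (0.0535 to 0.135) and in CA3 without NIC replicate 2 (0.0671) or 8R replicate 1 (0.0522). Its CA1 call was also lost after quantile normalization (0.0679) and centring (0.0926), and its CA3 call after centring (0.0547). Vars2 lost its call without NIC CA3 total replicate 2 (0.104), and Wars2 without NIC CA1 total replicate 1 or 2 or 8R replicate 2 (0.0696 to 0.101). Without pool 4, Lars2 and Tars2 were also called higher in CA3 total RNA (0.018 and 0.00396), as they were without 8R CA3 total replicate 4.

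For 12 amino acids both enzymes were set side by side. Phenylalanine, with Farsa and Farsb in the cytosol and Fars2 in mitochondria, was not among them. The signed log2 change of the cytosolic transcript lay above that of its mitochondrial counterpart in 11 of 12 pairs in CA1 total RNA (median difference 0.74 log2), with Wars1 and Wars2 the exception at -0.43 and -0.39. This includes Vars1 at 0.00 against Vars2 at -0.29, where the cytosolic change was the smaller in size. The signed change was above in 10 of 12 in CA1 polysome RNA, 12 of 12 in CA3 total RNA and 9 of 12 in CA3 polysome RNA, with median differences of 0.45, 0.55 and 0.30. Cars1 against Cars2 was 1.65 against -0.06 in CA1 total RNA, Tars1 against Tars2 1.41 against 0.10, and Rars1 against Rars2 1.24 against 0.14. Gars1 and Kars1 have no such partner, since each gene is known to make both the cytosolic and the mitochondrial enzyme. They rose by 0.26 and 0.36 in CA3 total RNA. Both calls were lost after quantile normalization (limma adjusted p 0.256 and 0.159) and centring (0.241 and 0.134). In CA1 total RNA Gars1 rose by 0.34 and Kars1, at 0.30, was not called. In the main fit neither was called in polysome RNA. After quantile normalization Gars1 was called in CA1 polysome RNA (0.0157). Pairs were described and not tested against each other, and in each pair the mitochondrial transcript was the dimmer.

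Transcripts inside and outside the multisynthetase complex rose. Over all genes tested, 20.1% rose and 6.15% fell in CA1 total RNA, and 14.2% rose in CA3 total RNA. Of the 7 complex members measured (Eprs1, Iars1, Kars1, Lars1, Mars1, Qars1 and Rars1) 6 rose in CA1 total RNA, with a median of 0.60, and of the 12 cytosolic members outside it 9 rose and 1 fell, with a median of 0.71. In CA3 total RNA 6 of 7 and 9 of 12 rose, with medians of 0.52 and 0.58. By catalytic class, 8 of 17 class I enzymes rose and 2 fell in CA1 total RNA, and 8 of 15 class II enzymes rose. These counts mix cytosolic and mitochondrial members, and the bifunctional Eprs1 was counted in class I alone. Among scaffold proteins and other synthetase-related genes 3 of 10 tested rose in CA1 total RNA, a share near that of all genes. They were Aimp1 (0.87), Aimp2 (0.35) and Eef1e1 (0.30), non-enzymatic parts of the complex. None of the 10 rose in the other comparisons, where Aimp1 was at -0.16 in CA1 polysome, 0.36 in CA3 total and -0.03 in CA3 polysome RNA.

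Other genes known to respond to ATF4 or to amino acid shortage were measured on the same arrays. Of 28 tested genes listed as ATF4 targets or amino acid response genes, 21 rose in CA1 total RNA, 17 in CA1 polysome, 20 in CA3 total and 10 in CA3 polysome RNA, and none fell. Of all genes tested 20.1%, 4.87%, 14.2% and 2.38% rose in these comparisons. Their medians were 0.80, 0.71, 0.51 and 0.36 log2. The 4 largest in CA1 total RNA were Atf3 (2.44) and Ddit3 (1.83), both stress-induced transcription factors, Ppp1r15a (1.65), the phosphatase subunit that reverses eIF2 phosphorylation, and Chac1 (1.47), which degrades glutathione. Ddit3 rose by 1.72 and Ppp1r15a by 1.67 in CA1 polysome RNA. The list's fraction of called genes in CA1 polysome RNA was thus 17 of 28, beside 8 of 19 for the cytosolic synthetases, a difference not tested. Asns, asparagine synthetase, a classic ATF4 target named here after its value was seen, was at 0.18 in CA1 total RNA and not called.

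Genes on either side of the charging step were also counted, where 20.1% of all genes rose in CA1 total and 14.2% in CA3 total RNA. Of 19 tested genes of tRNA maturation and export, 5 rose in CA1 total RNA, with Rpp30 (0.57), a ribonuclease P subunit, Trmt10c (0.54), of the mitochondrial form of that enzyme, Rtcb (0.52), the tRNA ligase, and Xpot (0.43), the tRNA exporter, the largest. In CA3 total RNA 3 rose, and 0 did by limma in either polysome fraction. Both shares are near those of all genes. The EF1 complex brings charged tRNA to the ribosome, and 4 of its 5 genes rose in both total fractions. They were led in CA1 by Eef1b2 (0.77), Eef1d (0.63), Eef1g (0.53) and Eef1a1 (0.35), and 0 of 5 were called in polysome RNA. Of 8 mitochondrial translation factors 3 rose in CA1 total RNA, Mtif2 (0.68), Guf1 (0.54) and Gfm1 (0.42), and 3 in CA3 total RNA. Of 10 genes for eIF2 kinases, eIF2B and related factors 3 rose in CA1 total RNA, Eif2s1 (0.84), Eif2b1 (0.63) and Eif2a (0.45), and 2 in CA3 total RNA, again near the shares of all genes.

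In control rats cytosolic synthetase transcripts were richer in polysome RNA than in total RNA. In NIC CA1 17 of 19 cytosolic members and 8 of 13 mitochondrial ones were higher in polysome RNA, where 39.4% of all genes tested were. In NIC CA3 17 and 5 were, where 21.5% of genes were. None was lower in either region. The median difference of the cytosolic members was 0.76 in CA1 and 0.57 in CA3, against 0.20 and -0.0039 over all genes. The deposited values of CA1 polysome arrays lie higher as a whole, and after quantile normalization the all-gene median in CA1 was 0.01, the cytosolic median 0.41 and the counts 16 and 3. Rars1 in NIC CA1 had 203, 192 and 208 in polysome RNA, against 89.3, 73.5 and 91.3 in total RNA (difference 1.11 ± 0.11 SE, n = 3 and 3, limma adjusted p = 2.69e-08). Tars1 had 236, 252 and 241 in polysome RNA, against 105, 104 and 112 in total RNA (1.08, 2.45e-06), and Lars1 had 209, 201 and 189, against 96.9, 75.2 and 91.8 (1.06, 1.05e-07). In each the fractions did not overlap. The largest differences in NIC CA3 were those of Lars1 (0.90), Rars1 (0.85) and Aars1 (0.80). Qars1 (0.28 in CA1 and -0.01 in CA3) and Wars1 (0.20 and 0.23) were the cytosolic members not called in either region. The control comparison shares its NIC arrays with the difference between fractions above.

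**Figure D4:**
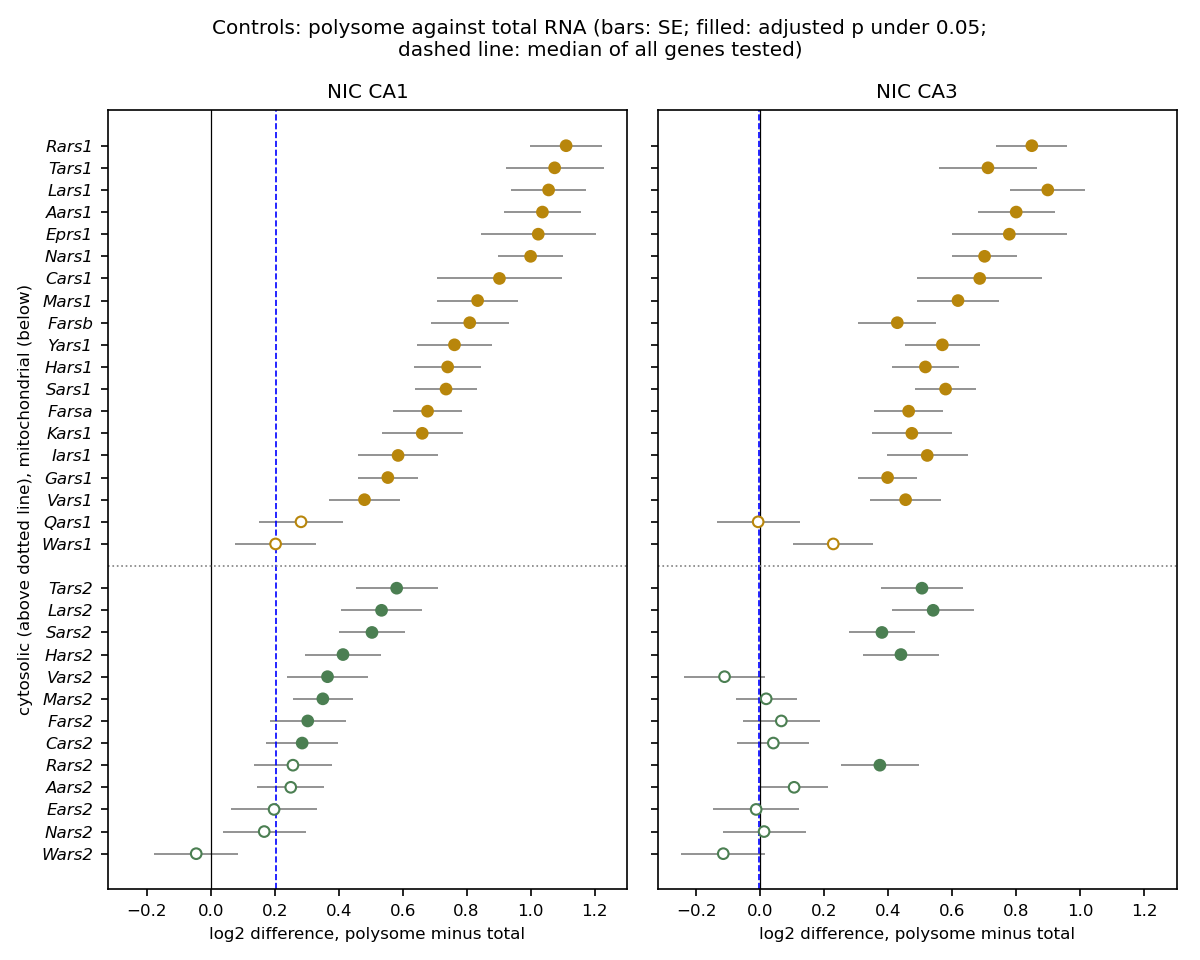
Log2 difference, polysome minus total RNA, in NIC CA1 and NIC CA3 for the 32 tested members (SE bars; filled where the adjusted p was under 0.05; cytosolic members above the dotted line; dashed line at the median of all genes tested). All cytosolic points in CA1 lie above 0, with Rars1 highest at 1.11 and Wars1 lowest at 0.20.

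Few members were called between the regions of control rats. In NIC total RNA 0 of 32 members were called by limma between CA1 and CA3, where 3.47% of all genes tested were, and 0 had an unadjusted p under 0.05. In NIC polysome RNA 28.4% of genes tested were called, a share that depended on scaling. Higher and lower calls over all genes numbered 3516 and 93 as deposited, and 342 and 239 after quantile normalization. Of the 32 members 1 was called as deposited. This was Ears2, the mitochondrial glutamyl enzyme, with 56.1, 66.7 and 72.5 in CA1, against 54.1, 50.7 and 36.4 in CA3 (0.37 ± 0.13 SE, adjusted p = 0.0394). Its arrays did not overlap, but the median of all genes in that comparison was 0.23, and the call was lost after quantile normalization and after centring. It was also lost without NIC CA1 polysome replicate 2 or 3 or NIC CA3 polysome replicate 3.

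The promoter matches printed above were set beside the changes. All 7 cytosolic members whose window holds the core rose in CA1 total RNA, by 0.34 (Mars1) to 1.65 log2 (Cars1) with a median of 1.05. Of the 10 with a window and no match 6 rose and 1 fell, from -0.43 (Wars1) to 1.79 (Eprs1) with a median of 0.33. In CA1 polysome RNA 5 of 7 and 2 of 10 rose, in CA3 total RNA 6 of 7 and 7 of 10, and in CA3 polysome RNA 1 of 7 and 1 of 10. Of all genes tested 20.1% rose and 6.15% fell in CA1 total RNA. In CA1 polysome, CA3 total and CA3 polysome RNA 4.87%, 14.2% and 2.38% rose. How many of all genes with the core in their window rose was not counted. Eprs1, with the largest rise, has no match in these 300 bases, and Lars1, Hars1 and Sars1 rose with none either. Of 27 other listed ATF4 targets and amino acid response genes with a window, 6 held the core (22.2%). A match is only a description of these letters, and no match says only that they are not in this window.

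**Figure D5:**
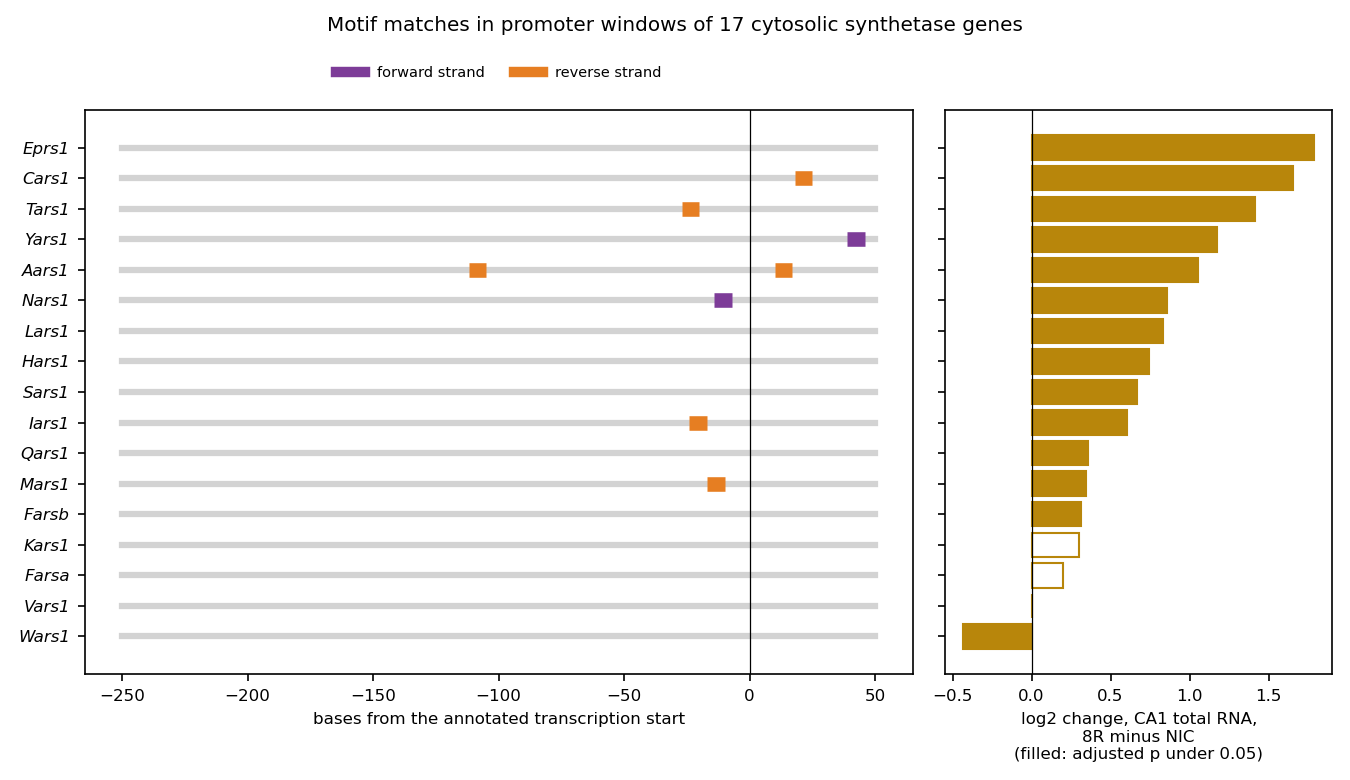
Left, positions of matches to the core in the promoter windows of the 17 cytosolic members with one, in bases from the annotated start (purple, forward strand; orange, reverse). Right, the log2 change of each in CA1 total RNA, 8R minus NIC (filled where the adjusted p was under 0.05), with matches in Cars1, Tars1, Yars1, Aars1, Nars1, Iars1 and Mars1, of which Aars1 has 2.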

How the data were processed

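Intensities, 1 per probe set and array on a linear scale, were deposited by the authors. Per the submitters' processing notes they came from PLIER and Affymetrix Expression Console, without a version, and how background and scaling were handled is not given in the sources used here. Array number limits the precision. Of 36685 probe sets 18511 had 1 gene symbol in the platform annotation, 575 several and 17599 none. Probe sets with 1 symbol were used, taking for every gene the brightest (18166 genes). On the scale of log2(intensity + 16), the 12716 genes whose mean reached the 30th percentile, 5.39, were tested.

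The 27 arrays entered a single limma model (version 3.58.1, R 4.3.3) of 8 group means, whose variances followed an intensity trend. It had 19 residual degrees of freedom and a prior worth 10.1. Two-sided p-values received Benjamini-Hochberg adjustment across the genes of each comparison, and those under 0.05 were called. The procedure was tested on simulated data for 8R minus NIC in CA1 total RNA only. Noise there was drawn independently for each array, so arrays of a pool that deviate together were not covered. CA1 and CA3 were taken from each animal, and polysome RNA was pelleted from the supernatant that gave total RNA, so arrays of different groups may share rats. Beyond the pool numbers, no source says which arrays do. The main fit treats all arrays as unpaired, also between fractions and between regions, and its p-values measure the spread between these arrays. In 8R, arrays of the same pool number deviated together (correlations 0.28 to 0.77 between fractions of a region and 0.12 to 0.78 between regions), as a hint from the data, and in NIC they did not (-0.04 to 0.22 and -0.02 to 0.10). Values with the pool as a block are given where they change a result. The members and lists were chosen with earlier results of these data known.

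Array values in full were given for the 8 members with the largest called change, for 2 mitochondrial members, for up to 3 with a called difference between fractions or regions, and for the 3 largest control differences. Others are said to have been chosen after their values were seen. Promoter windows are RefSeq's, of build GRCr8. Protein sequences were not used here. Alternatives were other pseudocounts (1 and 64), filters and scalings, array weights, no variance trend, the compared groups alone, the mean over probe sets, pool and title numbers as blocks, and each array left out.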

Additional observations from a re-analysis of the deposited data

Results flagged for a closer look

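Among 36 checks for a value far from the others, of 12 genes in 3 groups of 4 arrays, 2 stood out. Chance gives about 1 in 20 for a single check, but these checks share arrays and are not independent. Cars1 in 8R CA3 total RNA had its lowest value, 119, in replicate 3, with a gap of 0.835 of the group's range. Aars1 in 8R CA3 polysome RNA had its lowest value, 513, in replicate 3, with a gap of 0.858. Both arrays are of pool 3, which was lowest in all 8R groups for 6 of the 8 members with the largest called change. This did not hold for all cytosolic members. For Farsa and Farsb pool 3 was the highest array of 8R CA3 total RNA (97.3 and 233).

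The change after ischemia differed between polysome and total RNA of CA1 for 4 cytosolic members by limma's test of the difference. The polysome change minus the total change was -0.671 for Rars1, -0.529 for Nars1, -0.715 for Hars1 and -0.646 for Sars1. The NIC arrays of total and polysome RNA that enter these differences are those of the control comparison, and their part was not tested.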

How the results depend on the processing

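No call among the members changed direction under any alternative run. Leaving out each array in turn, the count of called cytosolic members ranged from 12 to 16 in CA1 total, 6 to 10 in CA1 polysome, 11 to 16 in CA3 total and 0 to 6 in CA3 polysome RNA. The mitochondrial counts ranged from 0 to 3, 0 to 1, 0 to 4 and 0 to 0. The difference between fractions ranged from 0 to 6 in CA1 and 0 to 8 in CA3, that between regions was 0 in both fractions, and NIC CA1 minus CA3 ranged from 0 to 1 in polysome RNA. Cytosolic members called in CA3 polysome RNA (2 as reported) numbered 4 with a pseudocount of 1, 1 (Nars1) after quantile normalization and 0 after centring. They numbered 4 with array weights and 1 in a fit of the compared groups alone. With a replicate block they numbered 4 (title number) and 5 (pool number, random). Mitochondrial calls in CA1 total RNA (1 higher, 1 lower) were 0 higher and 2 lower after quantile normalization, and 0 higher and 3 lower after centring. Mitochondrial calls in CA3 total RNA (2) numbered 1 after centring, 4 with array weights, 5 with the title block and 4 without pool 4, and in CA1 polysome RNA (0) 1 with array weights. The difference between fractions in CA1 (4) gave 2 after quantile normalization, and with a replicate block 11 (title), 8 (pool, random) and 11 (pool, fixed). In CA3 (0) it gave 17 with array weights, 10 without pool 4, and with a replicate block 7 (title), 13 (pool, random) and 17 (pool, fixed). The difference between regions (0) gave 3 in total and 2 in polysome RNA with the fixed pool block. NIC CA1 minus CA3 gave 1 in total RNA (0) for the compared groups alone and for the fixed pool block. In polysome RNA (1) it gave 0 after quantile normalization, 0 after centring, 2 with array weights, 4 for the compared groups alone and 2 with the fixed pool block. The cause was not tested in any of these. For blocks, array weights, the compared groups alone and fits without pool 4, the share of all genes called was not counted.

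Scaling moved the direction of calls over all genes. Higher calls made up 76.6% of all calls in CA1 total RNA, and 52.7% after quantile normalization and 49.1% after centring. The same 3 shares were 58.5%, 53.9% and 35.4% in CA1 polysome, 91.4%, 59.1% and 60.8% in CA3 total, and 89.6%, 73.3% and 65.3% in CA3 polysome RNA. They were 10.7%, 40.5% and 21.3% for the difference between fractions in CA1 and 33.3%, 57.9% and 57.1% in CA3. For controls they were 89.5%, 56.7% and 61.3% for polysome minus total in CA1, 69.4%, 58.2% and 63.8% for CA1 minus CA3 in total RNA, and 97.4%, 58.9% and 60.4% in polysome RNA. Centring shifted the all-gene median by -0.107 in CA1 total and -0.114 in CA3 total RNA, and cytosolic members called higher then numbered 12, 7, 11 and 0, against 12, 10, 11 and 1 after quantile normalization. Groups of 3 or 4 pooled arrays and unstated scaling limit small differences.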
